A study of Drosophila melanogaster with 2 samples.

Results

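Composite regions are stretches of the E(spl)mβ-HLH binding map in which several deposited peaks overlap. They were chosen by measured values: peaks of the authors' reproducible list, which is thresholded on the irreproducible discovery rate (IDR), were joined where they shared at least 1 bp on chromosome arms 2L, 2R, 3L, 3R, 4 and X. Regions built from at least 2 peaks were kept. Of 5206 regions, 512 were composite, or 9.83% (95% Wilson interval 9.06 to 10.7%), and 4694 came from 1 peak. The composite regions held 1050 peaks, or 18.3% of those in the list. Of the 512, 490 had 2 peaks, 18 had 3 and 4 had 4. Number of peaks, width, spacing and signal are therefore properties that chose the regions or follow from the choice, and they are given as descriptions without a test.

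The map comes from chromatin immunoprecipitation and sequencing on whole Drosophila melanogaster embryos of both sexes, aged 0 to 24 hours. The line carries a stable transgene for the factor E(spl)mβ-HLH, tagged with GFP at the C-terminal end, and the series holds 1 group of 2 biological replicates, numbered 1 and 3. Chromatin was sonicated to fragments of 200 to 800 bp. Whole embryos mix all tissues, no other group was compared, and the free-text sample descriptions speak of an input control where the assay title and antibody field name an immunoprecipitation of the factor. The lists hold no read counts, so depth is unknown. Shares carry 95% Wilson intervals, which measure counting error alone, and neighbouring regions are not independent of each other.

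The factor belongs to the Hairy and Enhancer of split family of basic helix-loop-helix (bHLH) repressors. Genes of the Enhancer of split complex are switched on by Notch signalling through Su(H), and their proteins recruit the co-repressor Groucho and are known to bind E-box-like and N-box words. In a peak list, the summit is the base that the peak caller assigns as the top of a peak, so overlapping peaks with different summits mark a stretch of chromatin to which the caller gave more than 1 top.

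Sequences are shown for composite regions whose summits share a window of 300 bases, so that the distance between the tops can be read on the DNA. The first 5 are among the strongest such regions, and the last is the stretch over the strongest 2 summits at the tagged gene, chosen after its values were seen. All are written 5′ to 3′ on the plus strand of dm6 as held by RefSeq, and positions are counted from 1 at the left end. They span chr3R:26008492-26008791 upstream of E(spl)malpha-BFM, chr3R:11760990-11761289 at Lk6, chr2L:3302145-3302444 at CG9663, chr2L:10661536-10661835 at CG31871, chr3L:8696649-8696948 downstream of hry and chr3R:26006075-26006374 at E(spl)mbeta-HLH. Capitals mark matches on either strand to 9 words: CACGTG and CACGCG, words of Hairy and E(spl) proteins, CACNAG, the N-box, CAGCTG, an E-box of other bHLH factors, TATCGATA of DREF, GGTCACACT of M1BP, GAGAGAG of GAGA factor, CAGGTAG of Zelda and GTGGGAA of Su(H).
E(spl)malpha-BFM: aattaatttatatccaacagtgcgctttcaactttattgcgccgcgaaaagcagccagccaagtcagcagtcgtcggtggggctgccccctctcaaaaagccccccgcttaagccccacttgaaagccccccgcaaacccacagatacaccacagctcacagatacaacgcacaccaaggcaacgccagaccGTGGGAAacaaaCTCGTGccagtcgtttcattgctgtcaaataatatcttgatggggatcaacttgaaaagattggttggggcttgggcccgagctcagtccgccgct
Lk6: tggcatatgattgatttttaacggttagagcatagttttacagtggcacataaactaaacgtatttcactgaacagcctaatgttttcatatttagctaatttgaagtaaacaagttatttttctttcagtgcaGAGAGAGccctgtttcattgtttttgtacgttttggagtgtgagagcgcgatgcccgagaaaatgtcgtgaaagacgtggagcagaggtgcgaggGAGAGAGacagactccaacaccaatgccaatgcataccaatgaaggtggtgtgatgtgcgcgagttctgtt
CG9663: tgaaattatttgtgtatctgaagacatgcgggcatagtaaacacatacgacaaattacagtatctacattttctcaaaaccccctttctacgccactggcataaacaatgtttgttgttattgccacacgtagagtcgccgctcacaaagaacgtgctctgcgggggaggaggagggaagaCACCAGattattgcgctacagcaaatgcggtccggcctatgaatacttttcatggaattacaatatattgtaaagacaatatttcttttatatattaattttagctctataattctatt
CG31871: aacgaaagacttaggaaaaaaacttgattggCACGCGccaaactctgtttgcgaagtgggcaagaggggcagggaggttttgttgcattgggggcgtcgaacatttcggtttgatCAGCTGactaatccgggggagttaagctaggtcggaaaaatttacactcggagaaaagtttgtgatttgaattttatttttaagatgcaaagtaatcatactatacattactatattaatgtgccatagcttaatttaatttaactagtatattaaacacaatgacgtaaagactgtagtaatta
hry: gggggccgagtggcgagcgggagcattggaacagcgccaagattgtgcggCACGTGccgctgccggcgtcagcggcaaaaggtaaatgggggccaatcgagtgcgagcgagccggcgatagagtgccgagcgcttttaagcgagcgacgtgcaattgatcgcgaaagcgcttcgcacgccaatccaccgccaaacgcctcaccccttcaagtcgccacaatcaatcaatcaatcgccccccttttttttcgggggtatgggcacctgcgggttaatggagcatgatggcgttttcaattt
E(spl)mbeta-HLH: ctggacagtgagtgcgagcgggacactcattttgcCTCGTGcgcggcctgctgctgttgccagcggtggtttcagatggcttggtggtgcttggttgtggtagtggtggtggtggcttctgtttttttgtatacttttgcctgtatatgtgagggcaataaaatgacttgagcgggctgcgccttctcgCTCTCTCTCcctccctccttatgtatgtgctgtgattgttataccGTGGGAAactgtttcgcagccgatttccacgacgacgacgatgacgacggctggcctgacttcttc

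In these windows the stronger summit came first from the left each time. It stood at position 47 in the E(spl)malpha-BFM window, at 51 for Lk6, 48 for CG9663, 50 for CG31871, 49 for hry and 50 for E(spl)mbeta-HLH, and the weaker summit followed at 253, 250, 253, 251, 252 and 250. The hry window held CACGTG at positions 51 to 56, across the bases next to its stronger summit. The CG31871 window held CACGCG at 32 to 37 and CAGCTG at 116 to 121. The E(spl)malpha-BFM window held the Su(H) word at 193 to 199 and an N-box at 205 to 210, and neither stood at a summit. The window at the tagged gene held an N-box at 36 to 41, 2 overlapping matches of the GAGA word from 190 to 198 and the Su(H) word at 235 to 241. Lk6 held the GAGA word at 135 to 141 and at 230 to 236, and CG9663 held an N-box at 182 to 187.

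The share of comparable windows that hold each word puts these matches in context. Among 300-base windows centred between the summits of the 444 composite regions whose adjacent summits lay no more than 250 bp apart, 5.86% held CACGTG, 12.6% CACGCG, 29.7% CACNAG, 14.2% CAGCTG, 10.1% GAGAGAG and 2.48% GTGGGAA. Windows of the same length centred on the summits of the 4694 1-peak regions held them in 5.33%, 10.7%, 33.0%, 18.0%, 10.2% and 3.54%. For CAGCTG the intervals were 11.3 to 17.7% in composite windows and 16.9 to 19.1% in 1-peak windows, and for none of the 9 words were the intervals of the sets apart. For TATCGATA, GGTCACACT and CAGGTAG the shares were 4.95%, 2.48% and 1.80% in composite windows and 5.50%, 3.11% and 1.47% in 1-peak windows.

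The strongest composite region lay at the tagged gene and was the strongest of all regions. It spanned chr3R:26005796-26007488 (1693 bp) and carried 4 summits. The main one stood 101 bp upstream of the gene's transcription start site (TSS), with a pooled signal of 5401, and had a signal of 3208 in the list of replicate 1 and 2222 in that of replicate 3. The next, 301 bp upstream, had a pooled signal of 2101, with 1108 and 903.3 in the replicate lists. Further upstream, at 1020 and 1225 bp from the TSS, stood summits of 409.5 and 187.6. The summit of 409.5 was listed in both replicates, and that of 187.6 had a match within 100 bp in the list of replicate 3 and none in that of replicate 1. Signals are the authors' values, and those of different lists are not on a common scale. The line carries a transgene for this factor, and whether that copy added to the signal at this locus was not tested.

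Of the composite regions within 5 kb of the Enhancer of split complex there were 4, the one above included. The region upstream of E(spl)malpha-BFM, a gene of the Bearded family, had intergenic summits of 2976 and 1850. They ranked 11 and 57 in replicate 1 and 10 and 56 in replicate 3. A region 1502 bp downstream of the E(spl)mbeta-HLH TSS had summits of 811.7 and 519.4. The region before E(spl)m3-HLH, another bHLH repressor gene, had summits of 807.2 and 231.0, the first 1046 bp and the second 847 bp upstream of its TSS. Each of these 3 regions consisted of a pair of summits 199 to 206 bp apart, with the weaker at the higher coordinate.

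**Figure D1:**
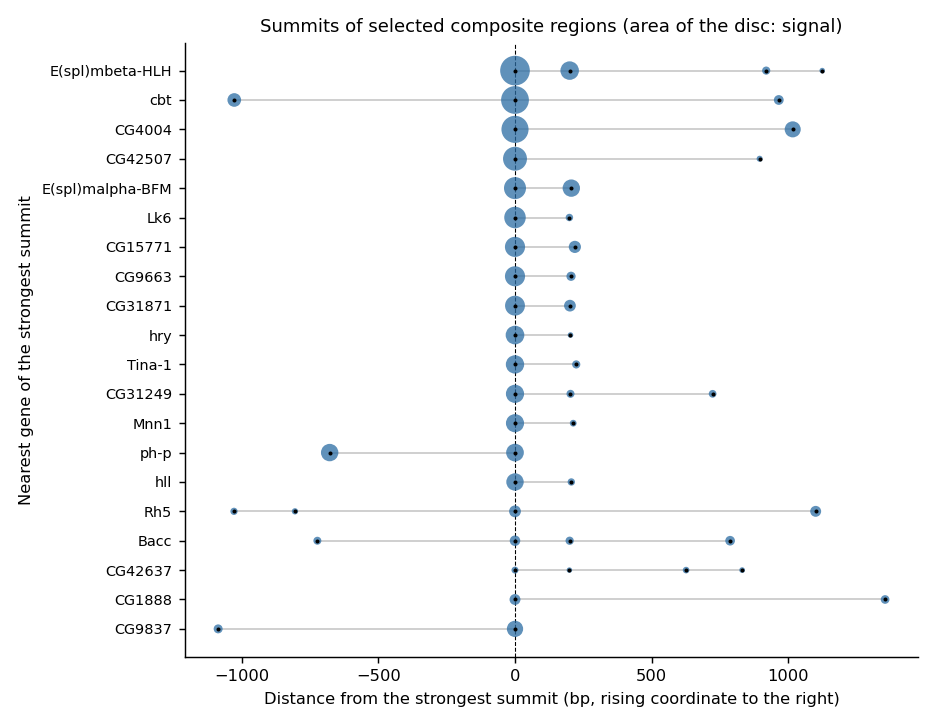
Summit positions in the 15 composite regions of highest signal, the remaining regions of 4 peaks and the remaining regions among the 5 widest gaps, relative to the strongest summit of each region (horizontal axis, bp, rising coordinate to the right). Each black dot is a deposited summit, the area of its disc is proportional to its signal, and rows are named by the gene nearest to the strongest summit. Most rows show a smaller disc about 205 bp to the right of the largest. In cbt, CG4004, CG42507, ph-p, Rh5, CG1888 and CG9837 the summits next to the largest stand farther away.

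Most composite regions had the same layout, a strong summit with a weaker one about 200 bp to its right. The 538 distances between adjacent summits had a median of 205 bp, with quartiles of 201 and 219.75 bp and a range from 199 to 1354 bp. Of these distances 66.4% were at most 210 bp, 86.1% at most 250 bp and 6.51% over 400 bp. In the IDR list and in each replicate list, 199 bp was also the smallest distance between any 2 listed summits, and in the pooled list it was 198 bp. Tops closer together than this cannot be told apart in these files. Whether the chromatin in composite regions is occupied at sites with this spacing was not tested.

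The side of the weaker summit followed the coordinate of the genome and not the direction of the gene. In the 490 regions of 2 peaks the weaker summit lay at the lower coordinate in 25, or 5.10% (3.48 to 7.42%). Among the 444 with summits at most 250 bp apart it did so in 8, or 1.80% (0.916 to 3.51%). Where both summits of such a pair had the same nearest TSS within 1 kb, the weaker lay downstream of the stronger in 123 of 126 pairs at genes on the plus strand and in 2 of 101 at genes on the minus strand. Pairs farther apart were split otherwise, with the weaker summit at the lower coordinate in 17 of 46, or 37.0% (24.5 to 51.4%).

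The same one-sidedness ran through all 4 deposited lists, at any adjacent summits no more than 250 bp apart. The weaker stood at the higher coordinate in 97.8% of 504 such pairs of the IDR list, 96.3% of 5508 in the pooled list, 96.1% of 5421 in replicate 1 and 95.6% of 5026 in replicate 3. For adjacent summits over 250 and up to 1500 bp apart the shares were 48.3% (n = 802), 43.9% (n = 11932), 44.8% (n = 11935) and 45.0% (n = 12142). The peak caller is not given in the sources used here, and its part in the side and the minimum distance of close summits was not tested. A close pair in these lists is therefore reported below as a strong region with a deposited second summit. The 68 regions with a gap of over 250 bp are described separately; that limit was set after the distances were seen, and 8.18% of distances lay between 230 and 270 bp.

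**Figure D2:**
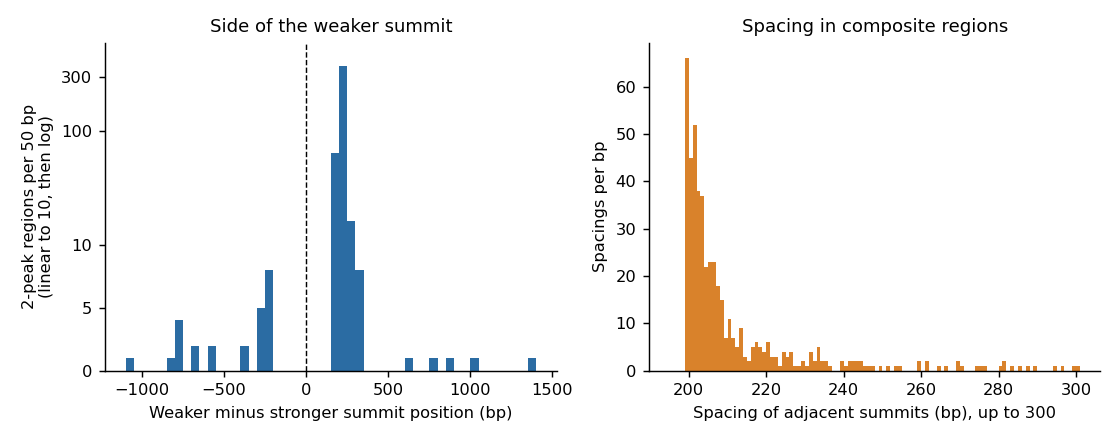
Left, position of the weaker minus the stronger summit (bp) in the 490 regions of 2 peaks, as regions per 50 bp on an axis that is linear to 10 and logarithmic above. Right, spacing of adjacent summits in composite regions up to 300 bp, as spacings per bp. Nearly all weaker summits stand at the higher coordinate, just above 199 bp from the stronger, and the few at lower coordinates are spread down to more than 1000 bp.

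Composite regions took 2 forms in the deposited list. In 244 of them the same interval was listed repeatedly with different summits, in 256 different intervals overlapped, and 12 combined both. Regions of the first form were wider and stronger, with a median width of 682 bp and a median strongest signal of 675.1, against 572 bp and 381.4 for overlapping intervals. Over all composite regions the medians were 607.5 bp and 502.7, against 349 bp and 286.4 in 1-peak regions. Overlapping intervals shared a median of 122 bp, and 10 of 259 neighbours shared 10 bp or fewer.

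The weaker summits commonly reached a sizeable part of the stronger signal. The ratio of the weakest to the strongest signal of a region had a median of 0.547 (quartiles 0.403 and 0.710). It was at least 0.5 in 57.2% of regions (52.9 to 61.4%) and under 0.25 in 8.40%. The ratio is bounded from below, since no peak under a signal of 183.6 was in the IDR list. In the 348 close regions resolved in both replicates the median ratio was 0.492 in replicate 1 and 0.455 in replicate 3, where weaker peaks also entered.

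The threshold of the list decided which regions counted as composite. The lowest IDR signal was 183.584 and the highest pooled signal outside the list was 183.559. Just inside were the region at Hn, a phenylalanine hydroxylase gene, with signals of 282.0 and 183.629, that at ush with 361.5 and 183.642, and that at Fpgs1 with 266.3 and 183.672. Just outside were regions at the gene for, which encodes a cGMP-dependent kinase, with 1581 and a pooled summit of 183.346, at CG33170 with 234.8 and 183.301, and at p with 194.1 and 183.276. The distances between those summits, 200 to 210 bp, were like those of the members. Of the 4694 1-peak regions, 1955, or 41.6% (40.2 to 43.1%), were overlapped by a weaker pooled peak outside the list, with a median signal of 90.8. Composite and 1-peak regions therefore also differ in signal.

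Accordingly the share of composite regions followed signal. Among the 1041 strongest regions (signal 489.6 and above) 25.9% were composite, and in the following quintiles of signal the shares were 12.4%, 6.82%, 3.55% and 0.480%. Of the 20 strongest regions 8 were composite, and of the 100 strongest 29.

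**Figure D3:**
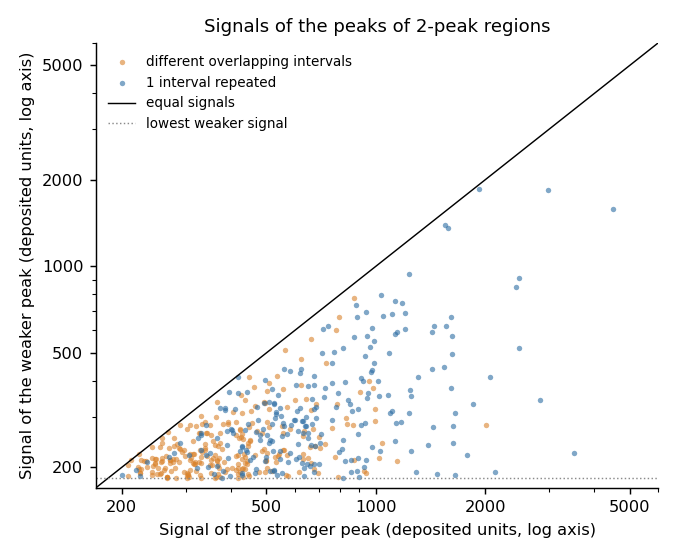
Signal of the stronger (horizontal axis) and weaker peak (vertical axis) of each 2-peak region, in the authors' units on log axes, with regions of 1 repeated interval in blue and of different overlapping intervals in orange. The diagonal marks equal signals and the dotted line the lowest weaker signal. Points fill the space between both lines, and orange points gather at signals under 500.

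Replicates listed most of these summits separately. Every summit of a region had its own replicate summit within 100 bp in 456 of 512 regions in replicate 1 (89.1%), in 443 in replicate 3 (86.5%) and in both in 396 (77.3%, 73.5 to 80.8%). In 9 regions neither replicate resolved them all. Because the replicates entered the pooled calls, this is a description of the lists and no independent check. In the 396, the strongest summit was also the strongest in replicate 1 in 392 and in replicate 3 in 383. Among close pairs resolved in both, the weaker replicate summit stood at the higher coordinate in 344 of 348 in each replicate.

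Strong composite regions with close summits lay at genes of varied function. At Lk6, which encodes a kinase of the translation factor eIF4E, a summit of 2838 lay inside the gene. It stood 961 bp upstream of its nearest Lk6 TSS, with one of 342.0 beside it. The replicate signals were 1546 and 1283 for the first and 166.3 and 144.1 for the second. CG15771 (2487 and 912.7), CG9663 (2481 and 520.5), CG31871 (2427 and 847.1), Tina-1 (2063 and 411.3) and Mnn1, the fly menin gene (2016 and 281.6), carried both summits within 1 kb of their own TSS. At CG15771 the weaker summit had a signal of 574.3 in replicate 1 and 110.7 in replicate 3, so its rank moved from 293 to 3815. The hry region, whose nearest gene encodes the repressor Hairy, was intergenic, 20742 bp downstream of the TSS, with summits of 2136 and 193.2. The region near hll was also intergenic, 2921 bp upstream, with 1857 and 331.6.

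Among the most unequal pairs was an intergenic region 12484 bp from the TSS of Eip75B, a nuclear receptor gene of the ecdysone response, with 1649 and 189.0. Its weaker summit ranked 4876 in replicate 1 and 26261 of 30000 in replicate 3. At the other extreme stood sgg, the Wnt pathway kinase gene, with 212.2 and 212.2, Snoo (223.3 and 222.7), rtet (269.0 and 266.6), an intronic region of elB nearest to ppk (417.9 and 411.3) and FASN1, a fatty acid synthase gene (258.8 and 253.5). The summits at rtet stood 75 bp from its own TSS and 140 bp from that of Sec15, an exocyst gene. These most equal pairs were of low to moderate signal, and 3 of the 5 had a summit with no match within 100 bp in 1 replicate, namely Snoo and rtet in replicate 1 and FASN1 in replicate 3.

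The 68 regions with a gap of over 250 bp held summits farther apart. They had a median width of 1057.5 bp and a median strongest signal of 455.3, against 584 bp and 508.4 in close regions. All summits were resolved in both replicates in 48, or 70.6% (58.9 to 80.1%). Their median ratio of weakest to strongest signal was 0.612. Their strongest summit was a promoter summit, within 1 kb of the TSS of a protein-coding gene, in 39, or 57.4% (45.5 to 68.4%), against 68.2% (63.8 to 72.4%) in close regions. The intervals overlap.

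The widest region, chr2L:479479-482507 (3029 bp), held 3 summits at cbt, a zinc-finger transcription factor gene. The strongest, 4740, stood 1370 bp upstream of the cbt TSS inside ush, which encodes a cofactor of GATA factors. It ranked 5 in replicate 1 and 2 in replicate 3. On its left, 343 bp from the cbt TSS, stood a promoter summit of 1146, and 965 bp on its right one of 589.6. All 3 were listed in both replicates, at signals of 633.2, 2526 and 359.8 in replicate 1 and 501.4, 2231 and 261.0 in replicate 3, so their order was the same in each.

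On the X, CG4004 had intergenic summits of 4510 and 1583, placed 5018 and 6034 bp downstream of its TSS. Their ranks were 4 and 94 in replicate 1 and 5 and 78 in replicate 3. At ph-p, which encodes a Polycomb group protein, nearly equal summits of 1862 and 1921 stood 678 bp apart. The first lay 438 bp upstream of its nearest ph-p TSS and the second 400 bp downstream of its own, a different TSS. Replicate 1 gave 941.4 upstream and 1043 downstream, and replicate 3 gave 961.6 and 899.6, so the replicates put them in opposite order. At Trl, the gene of GAGA factor, a summit of 3513 in an intron stood 895 bp from one of 224.9 that lies 650 bp inside the gene from a Trl TSS. The intronic summit is nearer to the TSS of CG42507, 1542 bp away. Within osa, a gene of the Brahma chromatin remodelling complex, an intronic region nearest to CG31249 had summits of 2028, 393.8 and 367.1, and the middle one had no match in replicate 3.

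The widest gap, of 1354 bp, was at CG1888, between intergenic summits of 729.0 and 463.3, the second of them nearest to the odorant receptor gene Or45b. At CG9837 a promoter summit of 494.7 and an intronic summit of 1626 stood 1086 bp apart. The weaker had 208.0 in replicate 1 and 291.6 in replicate 3. A region of 4 peaks near Rh5, a rhodopsin gene of the eye, spanned 2641 bp with intergenic summits of 322.6, 244.4, 853.0 and 733.8, and its widest gap was 1100 bp. That of 244.4 had no match in replicate 1. Another Rh5 region, of 3 peaks, lay upstream of the gene with 1032, 754.2 and 635.5.

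The remaining regions of 4 peaks lay at promoters. The region at Bacc had summits of 390.5, 676.9, 416.6 and 573.4, the first of them 270 bp from the TSS of Pgk, a glycolytic kinase gene. The region at CG42637 had 301.5, 184.6, 268.5 and 199.7, all within 1 kb of 1 TSS. Regions of 3 peaks included 2 near tara, which encodes a Trithorax group cofactor. In the intergenic one the signals were 904.9, 752.5 and 876.5, and in the intronic one 274.8, 243.0 and 260.4. They also included MYPT-75D, a myosin phosphatase subunit gene (692.9, 937.1 and 704.6), Cipc (447.5, 779.9 and 321.0) and Ptpmeg2, a tyrosine phosphatase gene (1856, 228.7 and 433.6). At Dp, the partner of E2F, the summits had 928.9, 189.9 and 309.8, and at spen, a Split ends transcriptional regulator gene, 382.6, 371.3 and 242.0. The spen summits all lay in an annotated 5′ untranslated region. Others were NFAT (426.5, 199.4 and 378.9), chas (422.7, 396.2 and 334.5), CG9921 (1402, 302.8 and 248.7, the last 100 bp from the TSS of Dsp1, a high mobility group protein gene), CG5953, CG3764, Paics, CG15093 and Atet, with strongest signals from 299.3 to 590.3 in the last 5. Replicate 1 had no match within 100 bp for the summits of 228.7 at Ptpmeg2 and 382.6 at spen. Replicate 3 had none for those of 189.9 at Dp, 422.7 at chas and 302.8 at CG9921. It also had none for 227.1 at CG5953, 392.5 at CG3764 and 276.2 at Paics. The Dp summit of 189.9 ranked 26419 in replicate 1.

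Location was not used to choose composite regions, and it differed little from that of 1-peak regions. The strongest summit was a promoter summit in 66.8% (62.6 to 70.7%) of composite and 64.5% (63.1 to 65.9%) of 1-peak regions. It was intronic in 21.5% (18.1 to 25.2%) against 25.6% (24.4 to 26.9%) and intergenic in 10.5% (8.17 to 13.5%) against 8.20% (7.45 to 9.02%). None of the 512 fell in a coding exon away from promoters, which allows a share of up to 0.586% (3 counts), and 15 of 4694 1-peak summits did. The other summits of composite regions had 67.1% at promoters. Because location varies with signal, the comparison within quintiles of signal is given beside it. Among the 1041 strongest regions the promoter share was 65.6% (59.7 to 71.0%) in composite and 74.3% (71.1 to 77.3%) in 1-peak regions, and those intervals do not overlap. In the other quintiles they did.

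Fewer composite than 1-peak summits stood at the TSS itself. The strongest summit was within 100 bp of a TSS in 24.6% (21.1 to 28.5%) of composite and 32.8% (31.5 to 34.1%) of 1-peak regions. The share was 17.2% (13.0 to 22.4%) in regions of 1 repeated interval. In those of overlapping intervals it was 32.8% (27.4 to 38.8%), close to that of 1-peak regions. These shares are not given within quintiles of signal, and the part of signal in them was not tested. Median distances from the TSS were 307.5 bp in composite and 266 bp in 1-peak regions, while upper quartiles had the reverse order, at 1638 and 2034 bp. Strongest summits over 5 kb from a TSS made up 10.5% (8.17 to 13.5%) of composite and 13.1% (12.1 to 14.1%) of 1-peak regions, with overlapping intervals. The strongest summit of composite regions had TSSs of at least 2 genes within 1 kb in 25.2% (21.6 to 29.1%), against 23.1% (21.9 to 24.3%). In the 490 regions of 2 peaks both summits were promoter summits in 321, 1 was in 22 and neither in 147. The TSS lay between the summits in 58 of the 242 whose promoter summits had the same nearest TSS. In 55 of the 490 the summits were nearest to different genes.

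**Figure D4:**
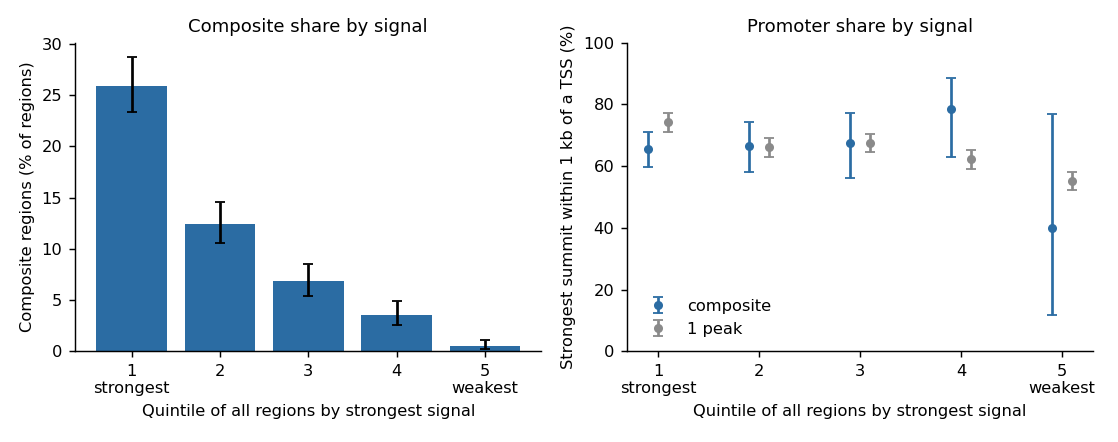
Left, composite regions as a percentage of all regions in each quintile by strongest signal. Right, share of regions whose strongest summit lies within 1 kb of a TSS, for composite (blue) and 1-peak regions (grey). Bars and points are percentages with 95% Wilson intervals. The composite share falls from 25.9% to 0.480%, and the promoter intervals of both kinds of region are apart in the strongest quintile only.

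The X carried proportionally fewer composite regions than the autosomal arms. They made up 63 of 895 regions on the X, or 7.04% (5.54 to 8.91%), and 449 of 4293 on 2L, 2R, 3L and 3R, or 10.5% (9.58 to 11.4%). On the arms in that order the shares were 12.3%, 10.8%, 10.2% and 8.93%. Chromosome 4 had 0 of 18, where 3 counts would give 16.7%. The median signal of 1-peak regions was 277.6 on the X and 287.8 on the autosomal arms. Within the 1041 strongest regions the shares were 21.0% (15.7 to 27.5%) on the X and 27.1% (24.2 to 30.1%) on the autosomal arms, and these intervals overlap. The part of signal in the difference was not tested further.

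Composite regions were also counted at ribosomal protein genes. A gene was counted for a region when a TSS of the gene had any of its summits within 1 kb. Of 76 cytosolic ribosomal protein genes with a region, 16 had a composite one, or 21.1% (13.4 to 31.5%), against 489 of 3888 genes in all, or 12.6% (11.6 to 13.7%). These intervals overlap, and such promoters were already known from these data to carry strong signal. The regions of the 16 genes all had strongest signals above 489.6, in the strongest quintile, where 25.9% of all regions were composite. The part of signal in the count was not tested. In 15 of the 16 the strongest summit stood within 66 bp of the TSS of the ribosomal protein gene. Of all composite regions, 24.6% had theirs within 100 bp of a TSS. That share also covers regions away from promoters, whereas the 16 genes were counted through a summit within 1 kb of their TSS. The shares are therefore not matched. Whether summits stood as close at ribosomal protein genes with only 1-peak regions was not tested. At RpL11 the strongest summit was 21 bp upstream with a signal of 1787 (1020 and 772.0 in the replicates). The weaker, 180 bp downstream, had 221.3. At RpL14 the summits had 1629 at 14 bp upstream and 279.4 at 188 bp downstream. At RpL19 they had 1441 and 277.4.

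The second summits of other pairs varied in place. For RpL3 (1084 and 356.3), RpL8 (1038 and 243.3), RpL37A (938.5 and 190.8) and RpS29 (860.0 and 315.3) the weaker summit stood 195 to 233 bp downstream of the TSS. For RpL34b (1183 and 744.0) it stood 5 bp from the TSS of CG8132, for RpS25 (1312 and 414.1) 8 bp from that of CG4820 and for RpL28 (989.1 and 462.0) 127 bp from that of eIF1, a translation initiation factor gene. RpL32 (1246 and 372.9) and RpL36 (684.6 and 298.1) had theirs nearest to CG7943 and Mybbp1A. Composite regions also lay at RpS18 (999.0 and 320.7) and RpS7 (951.8 and 363.7), whose weaker summit stood 131 bp upstream of its nearest TSS, also of RpS7. RpS20 was the gene where the weaker summit of 280.8 was the one at its TSS and the stronger of 583.2 was nearest to CG17271.

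Signalling genes with composite regions were few. In the Notch pathway list 3 of 8 genes with a region had a composite one (13.7 to 69.4%). They were neur, a ubiquitin ligase gene for Notch ligands (625.0 and 388.3), numb, a Notch inhibitor gene (694.8 and 192.1), and aph-1, a gamma-secretase subunit gene, whose region had 768.5 near Snx21 and 505.0 near aph-1. At neur and numb the weaker summit had no match in replicate 3. In the EGFR list 4 of 11 did, namely the ligand gene spi (944.9 and 573.3), the inhibitor gene sty (727.0 and 241.0), the kinase gene Raf (721.1 and 351.8) and the adaptor gene drk (432.6 and 185.2). The Wnt list had 1 of 8, sgg, and the Dpp list 0 of 8. For the Dpp list 3 counts would give 37.5%. The Hairy-type repressor list had 1 of 4, which was the tagged gene, and the Enhancer of split complex 2 of 4, the tagged gene and E(spl)m3-HLH. These counts need a summit within 1 kb of a TSS of the gene. By nearest TSS at any distance, shn of the Dpp list had 5 composite regions and hry of the Hairy-type list had 2.

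Lists of other functions gave similar small counts. Promoter and insulator factors had 3 of 13, Trl, the BTB-domain gene lola (760.6 and 273.9) and the zinc-finger gene cg (412.3 and 195.8). The zinc-finger and steroid-response regulators had 3 of 8, cbt, Eip75B with a promoter region (518.3 and 194.6) beside its distal one, and ush (361.5 and 183.6). The stronger ush summit had no match within 100 bp in replicate 3. Cytoskeletal genes had 3 of 9, the nuclear anchor gene Msp300 (1148 and 589.9), alphaTub84B (568.8 and 324.0) and Act5C (497.7 and 401.8). The stronger Act5C summit had no match within 100 bp in replicate 1. Chaperones and glycolytic enzymes had 3 of 19, the enolase gene Eno (1553 and 1391), Pgk and the pyruvate kinase gene PyK (349.6 and 281.0). Eno had the most equal strong pair among these lists, with 804.3 and 686.6 in replicate 1 and 738.4 and 649.7 in replicate 3. Neuroblast and neuronal genes had 0 of 5. Beside 12.6% of all genes with a region (11.6 to 13.7%), the intervals of the Enhancer of split, Notch, EGFR and zinc-finger lists lay above and those of the other lists overlapped. For the Notch and zinc-finger lists they were only just apart, with a lower bound of 13.68% against an upper bound of 13.66%. Those 4 lists rest on 4 to 11 genes with a region each, and the Enhancer of split count includes the tagged gene. All lists were chosen with earlier results of these data known, so their intervals are a description and no test. The part of signal in this was not tested.

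Some loci carried several composite regions. The strongest summits of composite regions were nearest to 467 genes, and for 32 of these to at least 2 regions. These loci were chosen after their values were seen. The gene shn, a zinc-finger cofactor of Dpp signalling, and tara each had 5, and chinmo, a BTB zinc-finger gene of neuronal timing, had 4. The chinmo regions lay in intergenic sequence 1766 to 18433 bp upstream of its TSS, with strongest signals of 1637, 1625, 653.4 and 629.3. CHES-1-like, a forkhead gene, and cnc, the fly Nrf factor, had 3 each. These genes also had further 1-peak regions, 8 for shn, 7 for tara, 7 for chinmo, 9 for CHES-1-like and 7 for cnc.

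For most of the words searched, shares at composite and 1-peak summits had overlapping intervals. Within 100 bp of the strongest summits, CACGTG was found in 4.10% (2.70 to 6.19%) and CACGCG in 9.18% (6.97 to 12.0%) of composite regions, against 4.01% and 8.05% of 1-peak regions. CACNAG was found in 21.9% against 22.8%, CAGCTG in 10.2% against 12.5% and TATCGATA in 3.91% against 3.98%. GTGGGAA was at 3 of 512 strongest summits, or 0.586% (0.199 to 1.71%), against 2.24% (1.85 to 2.70%), and these intervals were apart. At the other summits it was in 2.42% (1.42 to 4.09%). Within 50 bp the GTGGGAA intervals overlapped, at 0.391% (0.107 to 1.41%) against 0.980% (0.736 to 1.30%). They also overlapped within 100 bp in the strongest quintile, at 0.741% (0.203 to 2.66%) against 2.85% (1.89 to 4.28%). CAGCTG was instead apart within 50 bp, at 3.71% (2.39 to 5.72%) of composite against 6.97% (6.27 to 7.73%) of 1-peak regions. In the strongest quintile its shares within 50 bp were 3.33% (1.76 to 6.21%) and 4.41% (3.17 to 6.10%), which overlap.

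Within 100 bp the GAGA word separated the summits of a composite region from each other, with 27 of 512, or 5.27% (3.65 to 7.56%), at strongest and 54 of 538 (7.77 to 12.9%) at other summits. Within 50 bp the shares were 1.56% (0.794 to 3.05%) and 4.28% (2.87 to 6.33%), and these intervals overlap. Its share was as high on the side where no summit was listed. In regions with close summits it was 9.68% (7.27 to 12.8%) in windows centred 205 bp above the strongest summit. At the same distance below it the share was 11.3% (8.65 to 14.5%), against 5.41% (3.66 to 7.92%) at the summit. The interval at the summit overlaps that above and is apart from that below. Around 1-peak summits the shares were 6.18% at the summit, 7.67% above and 7.37% below. Shares of the word were thus higher on both flanks than at the strong summit, but only the interval below was apart. CACNAG, with 25.8% at other summits, had 25.9% above and 25.2% below. At the strong summit of close regions it had 21.4% (17.8 to 25.4%), which overlaps the intervals of both flanks. These distances were chosen after the spacing was seen.

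**Figure D5:**
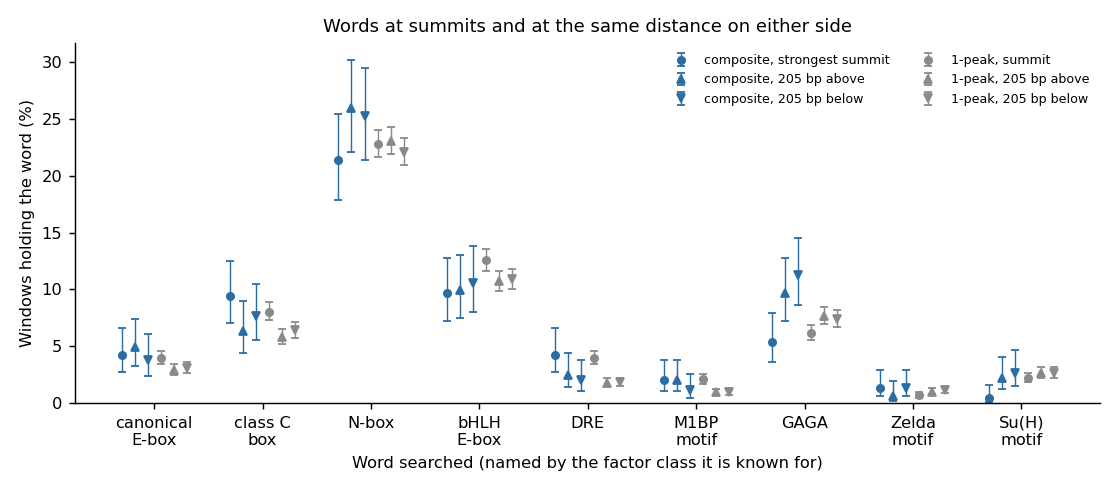
Share of windows of 100 bp each side that hold each of the 9 words, named by the factor class, at the strongest summit and one median spacing (205 bp) above and below it. Blue marks composite regions with close summits (n = 444), grey marks 1-peak regions (n = 4694), and bars are 95% Wilson intervals. For GAGA the blue triangles on both sides stand above the blue circle, at 9.68% and 11.3% against 5.41%. The interval of the circle overlaps that for 205 bp above and is apart from that for 205 bp below.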

How the data were processed

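The authors deposited 4 narrowPeak lists on dm6, 1 per replicate, 1 pooled and 1 IDR list, per the file descriptions. The signal column is as deposited, and its scale is unknown. The deposited −log10 q-value has a ceiling and was not used. Summits come from the deposited offsets, set to the last base in 4 IDR peaks. No source used here names the aligner, the peak caller or the IDR threshold (not given in the sources used here), and depth is unknown. Each replicate and pooled list holds 30000 peaks.

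Peaks were merged with Python 3.11.15 and numpy 2.4.6, and merging was tested on simulated data. No peak lay beyond the end of an arm in the RefSeq copy of dm6. Genes came from Ensembl release 115. Promoter summits lie within 1000 bp of a protein-coding TSS, and other summits were classed by untranslated regions and coding exons before introns, with the rest intergenic. With 1 group, no test was possible, and Wilson intervals have a confidence level of 95%. The members, words and gene lists were chosen with earlier results of these data known. Of the listed symbols, for example, 20 of 24 in the Notch, 23 of 24 in the EGFR and 6 of 9 in the Hairy-type list matched the annotation. Named genes were those nearest to the 15 strongest regions, to regions of the highest and second highest peak number, to the 5 widest, 5 with the widest gaps, 5 most equal and 5 most unequal, to regions within 5 kb of the Enhancer of split complex, and up to 3 per gene list. Members of the ribosomal protein list with a composite region (except 1, not reported here), all such members of the EGFR list, the strongest summits' neighbours and loci with several regions were named after their values were seen. Alternatives were other joining rules, thresholds, TSS and summit windows, and each replicate alone.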

Additional observations from a re-analysis of the deposited data

How the results depend on the processing

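Counts were taken as unchanged within 1.5 times, shares within their Wilson interval and medians within the SD between replicates. The number of composite regions, 512, was 166 with only the peaks above the median signal, and, under alternatives chosen after seeing the data, 68 with adjacent summits over 250 bp apart, 268 with each interval counted once and 1313 with the 10000 strongest pooled peaks. It was 473 to 546 in either replicate alone, but how many peaks of each replicate list entered these counts is not given here. The full lists of replicates 1 and 3 held 5421 and 5026 pairs of adjacent summits up to 250 bp apart. The IDR list held 504, so the replicate counts are unlikely to describe the full lists. Their closeness to 512 is therefore no check of that number, and the same limit applies to the other values without 1 replicate. Requiring peaks to share a minimum of 50% of the narrower gave a median width of 628 bp, spacing of 204 bp, ratio of 0.508 and signal of 571.1. Joining peaks up to 100 bp apart gave a spacing of 206 bp and a ratio of 0.575. The peaks above the median signal gave a width of 699.5 bp, a ratio of 0.581 and a signal of 779.4. Without 1 replicate, widths were 585 to 600 bp, spacings 203.5 to 204 bp, ratios 0.581 to 0.585 and promoter shares 67.9 to 71.5%; signals were not compared there because the lists are not scaled to each other. Regions with gaps over 250 bp had a ratio of 0.612, a promoter share of 57.4% and 70.6% resolved in both replicates. The promoter share was 58.4% with 500 bp, 78.3% with 2000 bp and 71.7% with the TSSs of all annotated genes. Resolution within 50 bp gave 60.7%. Within 50 bp of the strongest summit 25.6% held any of the 9 words, against 45.3%, since the window is shorter. Requiring outermost summits at least 150 bp apart could remove no region, since adjacent summits of composite regions were at least 199 bp apart. No paired analysis was possible because there is 1 group. Depth is unknown.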
